A study of Homo sapiens with 2 samples.

Results

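The 4 human alkaline phosphatase genes, ALPP, ALPPL2, ALPI and ALPL, were followed in AGS, an established cell line grown from a gastric adenocarcinoma. They were chosen by gene symbol in the deposited table, each symbol had 1 probe set, and they are 4 of 20280 genes named there. The tested cells had received 100 nM LBH589 (panobinostat, an inhibitor of histone deacetylases) for 24 h. The control sample is titled "control treated", while its treatment is given as none. Neither a vehicle nor a culture time of the control is given in the sources used here. Each condition has a single expression array, which leaves every difference without an error or a test. A gene is therefore called higher or lower only by the size of its ratio, 2-fold or more, and is called detected where its brighter array reached the 20th percentile of all intensities.

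Alkaline phosphatases are dimeric zinc enzymes held on the outer face of the cell membrane by a glycosylphosphatidylinositol (GPI) anchor, where they release phosphate from many substrates. ALPP encodes the placental form, ALPPL2 (now named ALPG) the placental-like form of germ cells, ALPI the form of the intestinal brush border, and ALPL the tissue-nonspecific form of bone, liver and kidney. The placental form is also made by some tumours. A gain of alkaline phosphatase activity is a long-used readout of differentiation in gut and other tumour lines given butyrate, itself a deacetylase inhibitor.

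ALPP, ALPPL2 and ALPI lie next to each other on chromosome 2 and are near copies, while ALPL lies on chromosome 1. The 250 bases upstream of each of the 3 clustered genes are shown because those of ALPP and ALPPL2 are close relatives whose genes differed on these arrays. They are RefSeq sequences of GRCh38.p14, plus strand, at chr2:232378501-232378750 for ALPP, chr2:232406594-232406843 for ALPPL2 and chr2:232455903-232456152 for ALPI. They are reference bases and were not read from AGS cells. Capitals mark 3 motifs that were searched on both strands. TTTAAA resembles the core promoter box at which transcription machinery assembles. GGGCGG is the box to which the factor SP1 binds. CACCC is of the kind bound by KLF factors.
ALPP: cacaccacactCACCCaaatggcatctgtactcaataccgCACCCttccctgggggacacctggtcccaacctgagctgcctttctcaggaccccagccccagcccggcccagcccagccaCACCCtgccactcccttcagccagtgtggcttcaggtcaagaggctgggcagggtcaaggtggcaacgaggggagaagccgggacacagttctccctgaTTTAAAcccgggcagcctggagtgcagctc
ALPPL2: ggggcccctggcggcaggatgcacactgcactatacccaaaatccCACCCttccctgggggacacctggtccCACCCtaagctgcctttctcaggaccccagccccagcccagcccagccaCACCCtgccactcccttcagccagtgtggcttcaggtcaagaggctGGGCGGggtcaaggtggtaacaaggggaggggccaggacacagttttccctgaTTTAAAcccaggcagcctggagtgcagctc
ALPI: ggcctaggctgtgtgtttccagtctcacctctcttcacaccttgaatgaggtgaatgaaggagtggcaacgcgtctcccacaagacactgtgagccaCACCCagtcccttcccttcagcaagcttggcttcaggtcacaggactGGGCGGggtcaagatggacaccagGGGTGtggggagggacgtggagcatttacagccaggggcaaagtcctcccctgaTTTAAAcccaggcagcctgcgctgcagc

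Over 244 aligned bases, the ALPP and ALPPL2 windows were identical at 216 (88.5%). Of the 28 differences, 18 fell in bases 1 to 40 of the ALPP window and 10 in bases 41 to 250. The ALPI window matched ALPP at 71.5% of 221 aligned bases and ALPPL2 at 73.6% of 220. All 3 windows hold TTTAAA near the gene's start, from base 221 in ALPP and ALPPL2 and from base 223 in ALPI. That motif was found in 11.3% of 35116 RefSeq promoter windows of the same length. ALPPL2 has GGGCGG from base 168 and ALPI from base 145, and the ALPP window has none on either strand. The ALPP window differs there from both by A172G, counted from 1 at its first printed base, and 42.6% of all windows hold that motif. CACCC or its reverse complement occurs in all 3 and in 54.7% of all windows. It starts at bases 12, 41 and 122 in ALPP and at 46, 73 and 122 in ALPPL2. Whether any difference between the windows bears on the intensities was not tested.

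ALPP was lower in LBH589-treated cells. Its probe set had an intensity of 4.57 on the LBH589 array, against 18.6 on the control array. Background was taken as 4.75, the 95th percentile over 450 probe sets of olfactory receptors, each at its brighter array, since a gastric line should have little use for these genes. The treated value lies just below that level, so ALPP was at least 3.91-fold lower. Over all olfactory receptor intensities of both arrays the same percentile was 4.36, just below the treated value, and the ratio of the intensities as measured is 4.06. On the log2 scale ALPP was at -2.02, the 151st lowest of 18806 detected genes. Of 2700 genes whose mean log2 intensity lay within 0.5 of that of ALPP, 20 (0.741%), ALPP included, had a ratio as low or lower. With 50 added to each intensity the log2 ratio of ALPP was -0.33, and with intensities floored at 16 it was -0.22, neither of which reaches 2-fold.

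ALPPL2, the closest relative of ALPP, was not lower. It had 38.2 on the LBH589 array, against 27.1 on the control array, both well above background. The treated value was 1.41 times the control value (log2 ratio 0.49), short of 2-fold. Of 2304 genes of like brightness, 530 (23.0%), ALPPL2 included, had a ratio as high or higher. With ALPP at its bound, the log2 ratio of ALPPL2 exceeded that of ALPP by at least 2.46, a difference that could not be tested with 1 array per condition. Probes of near copies may be shared or may bind both transcripts, and the share of each in either signal was not tested.

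ALPI, the intestinal form, had 6.67 with LBH589 and 5.29 in the control. Both values lie close above background and their log2 ratio was 0.34. Among 3765 genes of like brightness, 611 (16.2%), ALPI included, had a ratio as high or higher. ALPL, the tissue-nonspecific form, had 3.42 with LBH589 and 3.03 in the control. Both are below background, so no fold is given and its probe set shows no ALPL signal that could be told from background in either condition.

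Of the 4 genes, 1 was at least 2-fold lower and none was 2-fold higher, where 4.85% of detected genes were 2-fold lower and 4.89% 2-fold higher. With a floor at background, which sets ALPL to no difference, their median log2 ratio was 0.17, against 0.00 for all detected genes as measured. In the 3 genes above background on an array, the only call was the lower level of ALPP. At a size of 1.5-fold the same counts held, with 10.5% of detected genes lower and 11.6% higher, and at 3-fold too, with 1.73% lower and 1.44% higher. Intensities were measured in bulk, so fewer cells with a transcript and less of it per cell cannot be told apart.

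**Figure D1:**
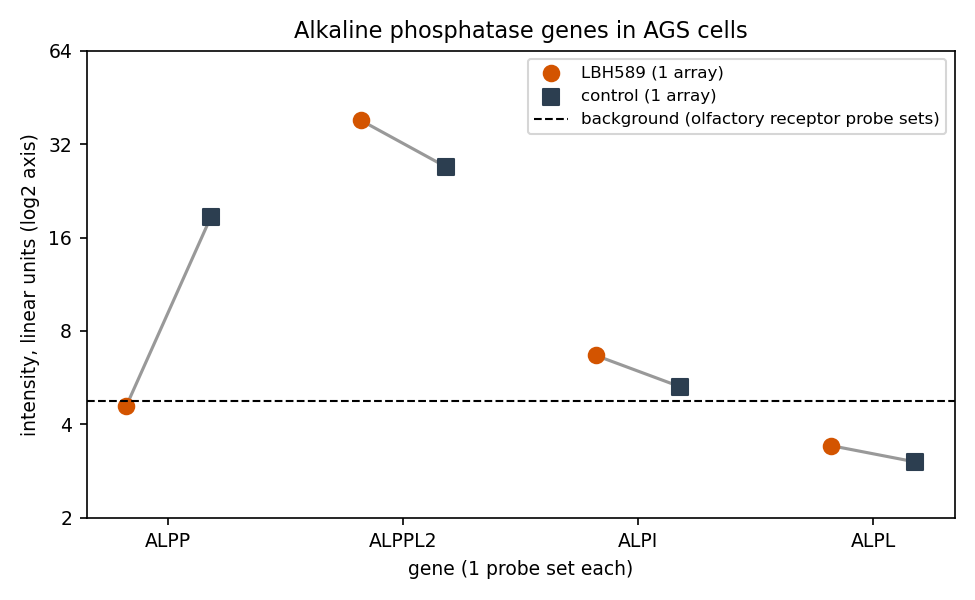
Intensity of the probe set of each alkaline phosphatase gene (log2 axis) on the LBH589 array (circles) and the control array (squares), 1 array each, with the background level of 4.75 dashed. ALPP had 4.57 with LBH589 and 18.6 in the control, whereas ALPPL2 and ALPI were brighter on the LBH589 array and ALPL was below the dashed line on both.

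**Figure D2:**
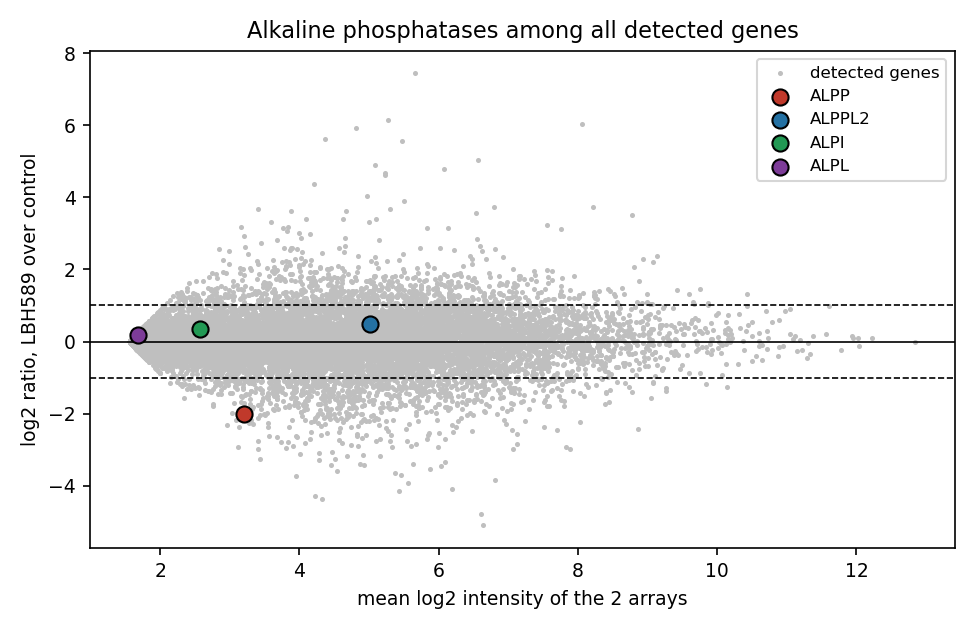
Log2 ratio of LBH589 over control against the mean log2 intensity for 18806 detected genes (grey), with the 4 alkaline phosphatases in colour and 2-fold dashed. ALPP lies at -2.02, ALPPL2 at 0.49 and ALPI at 0.34, and ALPL, below background on both arrays, is drawn only at its measured position.

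By the Euclidean distance between pairs of log2 intensities over the 2 arrays, the genes nearest to ALPP were DIS3L (4.50 with LBH589 and 20.4 in the control), CFTR and CPA6. Nearest to ALPPL2 were LCMT2, SUGP1 and FKBP8, and nearest to ALPI were EAF2, CORO6 and GOLGA8G. With 2 arrays, many genes share such a pair of values.

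Of the 10 protein-coding genes with a probe set nearest to the cluster, 5 on each side in RefSeq order, none was 2-fold lower and 1 was 2-fold higher. Of all detected genes, 4.85% were 2-fold lower and 4.89% 2-fold higher. Counts near these shares do not set the locus apart. The median log2 ratio of the 10 was 0.23. The higher gene was PDE6D, a chaperone of prenylated proteins, at 3.01-fold (66.7 with LBH589 and 22.2 in the control). DIS3L2, an RNA exonuclease gene on the ALPP side, had 17.5 with LBH589 and 15.0 in the control. ECEL1, an endopeptidase-like gene on the ALPI side, had 5.09 with LBH589 and 5.11 in the control. PTMA (1683 with LBH589 and 1439 in the control), COPS7B, NPPC, CHRNG, TIGD1 and EIF4E2 were within 2-fold, and CHRND was below background on both arrays.

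Around ALPL, 1 of the 10 nearest genes was 2-fold lower and none was 2-fold higher, beside 4.85% and 4.89% of all detected genes. Their median log2 ratio was -0.24. The lower gene was HSPG2, which encodes the matrix proteoglycan perlecan, at 2.63-fold (33.2 with LBH589 and 87.4 in the control). NBPF3 had 16.5 with LBH589 and 11.4 in the control. RAP1GAP, an inhibitor of RAP1 signalling, had 6.08 with LBH589 and 3.89 in the control. Its control value is below background, so it was at least 1.28-fold higher. SH2D5, HP1BP3, EIF4G3, ECE1, USP48, LDLRAD2 and CELA3B were also within 2-fold as measured. SH2D5 in the control and CELA3B with LBH589 were below background. With 50 added to each intensity, neither PDE6D (0.69) nor HSPG2 (-0.72) reached a log2 ratio of 1 in size.

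**Figure D3:**
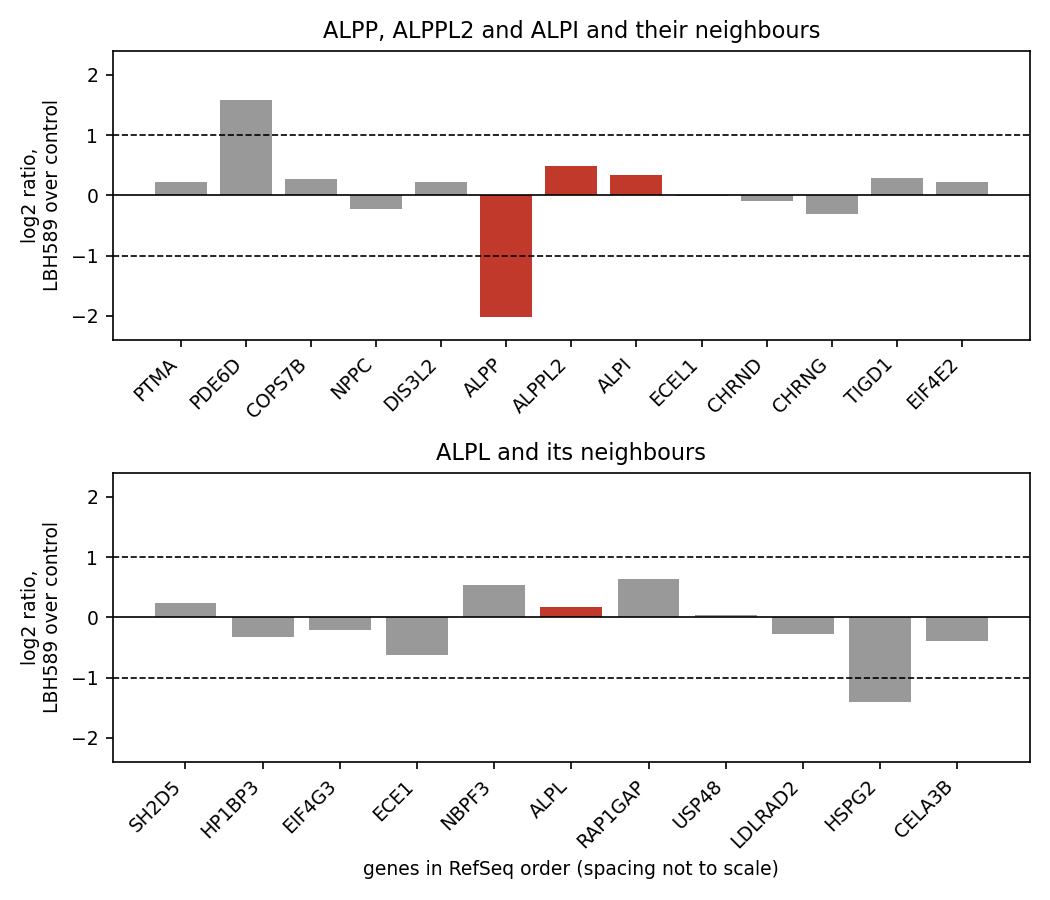
Log2 ratio of LBH589 over control for the alkaline phosphatase genes (red) and the 5 nearest protein-coding genes with a probe set on each side (grey), in RefSeq order and not to scale, with 2-fold dashed. ALPP at -2.02 is the lowest bar, and PDE6D at 1.59 and HSPG2 at -1.40 are the neighbours past 2-fold. ALPL and CHRND, below background on both arrays, are drawn at their measured ratios.

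Genes linked to the alkaline phosphatases by function, tissue or anchor, or as markers of deacetylase inhibition, were described in 10 lists, as counts and medians with no test. Of 154 detected genes in the lists, the alkaline phosphatases left out, 19 (12.3%) were 2-fold higher and 7 (4.55%) were 2-fold lower, beside 4.89% and 4.85% of all detected genes. Without the deacetylase inhibitor markers, 11 of 141 were 2-fold higher and 6 were lower. Other genes used as markers of deacetylase inhibition were mostly higher, in a list chosen with earlier results of these data known. The counts of that list are therefore a description and no separate support. Of 13 in that list, 8 were 2-fold higher and 1 was lower, with a median log2 ratio of 1.47 beside 0.00 for all detected genes. TXNIP was 65.4-fold, DHRS2 47.5-fold, CLU 29.7-fold, HSPA2 24.5-fold, CITED2 13.2-fold and MT1X 11.9-fold higher. DHRS2, CLU and HSPA2 had dim control values (6.43, 6.22 and 7.60), and with 50 added the log2 ratios were 4.73 for TXNIP, 2.65 for DHRS2, 2.06 for CLU, 2.04 for HSPA2, 2.50 for CITED2 and 2.27 for MT1X. With 50 added, 7 of the list were 2-fold higher and none was lower, beside 134 and 146 of 18806 detected genes. CDKN1A, the cyclin-dependent kinase inhibitor p21, had 53.6 with LBH589 and 54.5 in the control, and the tubulin TUBB3 had 168 with LBH589 and 157 in the control. SAT1, which acetylates polyamines, had 752 with LBH589 and 367 in the control, a log2 ratio of 0.94 with 50 added. CGA, the hormone subunit that butyrate raises in HeLa cells together with placental-type alkaline phosphatase, was below background with 3.16 with LBH589 and 2.98 in the control. The lower member was the histone gene H2BC12 by its brighter probe set (98.5 with LBH589 and 201 in the control), while its other probe set went the opposite way (166 with LBH589 and 78.2 in the control).

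Regulators of intestinal alkaline phosphatase were mostly within 2-fold, as were 16975 of all 18806 detected genes. Of 11, 1 was 2-fold higher and none was 2-fold lower, beside 4.89% and 4.85% of all detected genes. The median log2 ratio of the 11 was -0.13. The higher one was KLF4, a zinc finger factor that activates the ALPI promoter, with 38.8 with LBH589 and 17.5 in the control. With 50 added, the log2 ratio of KLF4 was 0.40. The gut homeobox factor CDX2 had a log2 ratio of -0.08, and CDX1 had 9.70 with LBH589 and 10.4 in the control. KLF5 had 84.0 with LBH589 and 79.9 in the control. The nuclear receptor HNF4A was 1.93-fold below its control value (14.2 with LBH589 and 27.3 in the control), and GATA4 had 35.8 with LBH589 and 51.6 in the control. GATA6, the thyroid hormone receptor THRA and its partner RXRA had log2 ratios from -0.51 to -0.13, and the receptor THRB was close to background (5.41 with LBH589 and 4.69 in the control).

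Other brush border genes were mostly below background. Of 24, 19 were below it on both arrays, beside 7483 of all 20280 genes. The 19 include the disaccharidase genes SI and LCT and the peptidase gene DPP4. Of 18 detected, 2 were 2-fold lower and none was higher, beside 4.85% and 4.89% of all detected genes. The median log2 ratio of the 18 was -0.07. The lower genes were CDH17 and VIL1. CDH17, an intestinal cadherin, was lower by 5.66-fold (31.0 with LBH589 and 175 in the control). VIL1, the actin bundler villin, was lower by 2.47-fold (90.5 with LBH589 and 224 in the control). EPS8, an actin capper of microvilli, had 44.6 with LBH589 and 26.7 in the control. With 50 added, VIL1 was at a log2 ratio of -0.96 and CDH17 at -1.48.

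Placental and germ cell genes, the setting in which ALPP and ALPPL2 are normally used, were mostly below background. Of 23 measured, 16 did not reach it on either array, beside 7483 of all 20280 genes. The 16 include the trophoblast factor gene GCM1 and the pluripotency factor gene NANOG. PLAC1, a placental membrane protein gene, was the only one of 19 detected past 2-fold, at least 5.31-fold higher (25.2 with LBH589 and 3.33 in the control). With 50 added its log2 ratio was 0.50. The list's median log2 ratio was 0.06. Of all detected genes, 4.89% were 2-fold higher and 4.85% lower.

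Genes of GPI anchor synthesis, on which membrane attachment of the enzymes depends, were nearly all above background (27 of 28, beside 12797 of all 20280 genes). Of 28, 3 (10.7%) were 2-fold higher and 1 (3.57%) was lower, beside 4.89% and 4.85% of all detected genes. The median log2 ratio of the 28 was 0.24. DPM1, the catalytic subunit that makes dolichol-phosphate mannose, had 637 with LBH589 and 258 in the control. PIGF, needed to add ethanolamine phosphate, had 33.0 with LBH589 and 14.5 in the control, and PIGM, the first mannosyltransferase, had 66.7 with LBH589 and 31.1 in the control. PIGB, a later mannosyltransferase, was 3.04-fold lower (6.68 with LBH589 and 20.3 in the control). With 50 added, DPM1 (log2 ratio 1.16) stayed past 2-fold, and PIGF (0.37), PIGM (0.53) and PIGB (-0.31) did not.

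Other GPI-anchored proteins had no common direction. Of 34 detected, 3 were 2-fold higher and 3 were lower, beside 4.89% and 4.85% of all detected genes. The median log2 ratio of the 34 was -0.09. LYPD3, a surface protein of the LY6 family, had 22.4 with LBH589 and 5.05 in the control. ULBP3, a ligand of the NKG2D receptor, had 25.5 with LBH589 and 6.08 in the control, and the ephrin EFNA4 had 57.9 with LBH589 and 21.4 in the control. CD24 was 2.06-fold lower (226 with LBH589 and 465 in the control), and the prion protein gene PRNP was at the 2-fold limit (99.9 with LBH589 and 200 in the control), within which median centring put it at a log2 ratio of -0.98. BST2, an interferon-induced tether of virions, had 2.91 with LBH589 and 6.59 in the control, at least 1.39-fold lower. Its log2 ratio was past 2-fold as measured and with median centring (-1.15), but not with a floor at background (-0.47). With 50 added, none of these 6 reached 2-fold.

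Among enzymes that act on extracellular nucleotides, as alkaline phosphatases also do, 2 of 10 were 2-fold higher and none was lower. Of all detected genes, 4.89% were 2-fold higher and 4.85% lower. The median log2 ratio of the 10 was 0.34. ENPP2 (autotaxin, which makes lysophosphatidic acid) was at least 5.64-fold higher (26.8 with LBH589 and 2.96 in the control). ENTPD8, a nucleoside diphosphohydrolase of canalicular and gut membranes, was 5.80-fold higher (35.2 with LBH589 and 6.06 in the control). With 50 added, neither ENPP2 (log2 ratio 0.54) nor ENTPD8 (0.60) reached 2-fold. ADA, adenosine deaminase, had 29.5 with LBH589 and 15.4 in the control, and ENTPD2 had 8.64 with LBH589 and 5.63 in the control. ENPP1, which makes pyrophosphate, was at least 1.26-fold higher, its control value being below background. NT5E, ENTPD1, ENTPD3, ENPP3 and ACP3 were below background on both arrays.

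Genes of the remaining lists were mostly within 2-fold, as were 16975 of all 18806 detected genes. Of all detected genes, 4.89% were 2-fold higher and 4.85% lower. In mineralisation and phosphate transport, 1 of 14 detected genes was 2-fold higher and none was lower, with a median log2 ratio of 0.11. The higher gene was the homeobox factor MSX2, at 3.52-fold (219 with LBH589 and 62.1 in the control). The phosphate transporter SLC20A1 had 83.9 with LBH589 and 151 in the control, and SLC20A2 had 51.0 with LBH589 and 80.1 in the control. None of 7 acid phosphatase genes passed 2-fold, with a median log2 ratio of 0.04. ACP1 had 89.4 with LBH589 and 80.6 in the control, and ACP2 had 52.1 with LBH589 and 64.9 in the control. ACP6 had 20.3 with LBH589 and 16.2 in the control, and ACP4 had 6.06 with LBH589 and 5.90 in the control. PXYLP1 was at least 1.07-fold higher over a control value below background, and ACP3 and ACP5 were below background on both arrays. None of 4 genes of vitamin B6 metabolism, a substrate pathway of ALPL, passed 2-fold, and their median was -0.11. PDXK had 42.4 with LBH589 and 57.3 in the control, PDXP had 21.5 with LBH589 and 24.9 in the control, and AOX1 was below background.

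**Figure D4:**
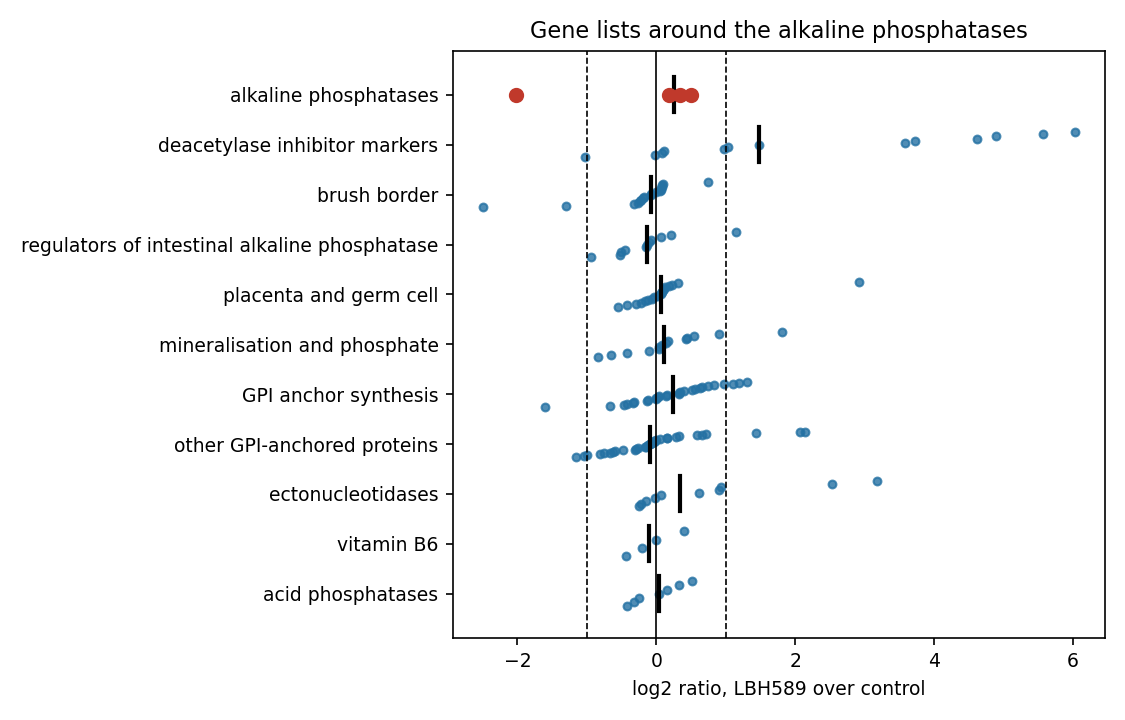
Log2 ratio of LBH589 over control for the 4 alkaline phosphatases (red) and the detected genes of the 10 lists (blue points), with each list's median as a black bar and 2-fold dashed. The median of the deacetylase inhibitor markers is 1.47, the other lists' medians lie between -0.13 and 0.34, and ALPP lies left of the other 3 alkaline phosphatases. Genes below background are drawn at their measured ratios.

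The line's epithelial markers were present, with KRT8 at 2292 with LBH589 and 1967 in the control and 5 of 5 above background. Their summed intensity was 4441 with LBH589 and 3755 in the control. KRT19 was 2-fold higher as measured (1171 with LBH589 and 566 in the control) but at a log2 ratio of 0.99 with 50 added. EPCAM went the other way (337 with LBH589 and 577 in the control). KRT18 had 632 with LBH589 and 634 in the control, and CDH1 had 9.72 with LBH589 and 11.4 in the control. The median log2 ratio of the 5 was -0.004, so they did not move together. The part of these markers in the result for ALPP was not tested. Of markers of fibroblasts and endothelium, 0 of 5 and 0 of 4 reached background. Of leukocyte, osteoblast, hepatocyte and trophoblast markers, 2 of 5, 2 of 4, 1 of 4 and 1 of 4 did. Over all 20280 genes, 12797 did. The summed intensity of the trophoblast markers was 12.6 with LBH589 and 13.9 in the control, and that of the osteoblast markers was 19.9 with LBH589 and 18.7 in the control. The median intensity over 33297 probe sets was 4.77 with LBH589 and 4.84 in the control.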

How the data were processed

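Total RNA of 2 AGS cultures was labelled with biotin and hybridised to 1 array each, per the labels. The deposited table gives an intensity for each probe set, for which the authors used gene-level RMA, per the file headers, although the submitters' processing notes name MAS5. The deposited fold is the authors' ratio of LBH589 to control intensity. The series' value table holds the same intensities for all 33297 probe sets, which ties each column to its sample. Neither array design nor genome build is given in the sources used here.

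Symbols were updated with RefSeq (GRCh38.p14): of 21864 probe sets with 1 symbol, 18258 were matched through their accession, 1111 through the symbol and 983 through a former symbol. An older symbol was not followed where its gene was measured under another symbol. TNAP, an older name of ALPL, names another gene in this table. A gene with more than 1 probe set was represented by its brightest. Intensities below 2.95, percentile 20 of all, were raised to that floor, and genes reaching it on an array count as detected. Motifs were searched in the 250 bases before each RefSeq start, and windows were aligned globally (match 2, mismatch -1, gap opening -4, gap extension -0.5). All 4 genes matched the promoter table and 3 windows are printed. No test was possible with 1 array per group. The members, lists and background were chosen with earlier results of these data known. The named genes were the members, all genes of lists of up to 12, up to 6 members past 2-fold of longer lists, the neighbours and the 3 genes nearest to each member above background. Some genes that this rule names are not reported here. Other genes named were chosen after their values were seen. Python 3.11.15, numpy 2.4.6, pandas 2.3.3, Biopython 1.88 and matplotlib 3.10.9 were used.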

Additional observations from a re-analysis of the deposited data

How the results depend on the processing

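The authors' deposited fold, median centring, quantile normalization, the series' value table, the median over probe sets and floors at either background level each left ALPP 2-fold lower, with ALPPL2 and ALPI within 2-fold. The floor at the lower background level, 4.36, was chosen after seeing the data. With 50 added to each intensity, which is above most intensities here, the log2 ratios were -0.33 for ALPP, 0.19 for ALPPL2, 0.036 for ALPI and 0.011 for ALPL, and 0 members were 2-fold lower. A floor of 16 gave -0.22 for ALPP and 0 for ALPI and ALPL, again with 0 members 2-fold lower. ALPL was at 0 with a floor at either background level, where both its values lie below the floor. In these settings dim signals count for less by construction. Of 154 listed genes, 9 were 2-fold higher and 1 was 2-fold lower with 50 added, beside 134 and 146 of 18806 detected genes. Of the 20 neighbours, 0 were higher and 0 lower in that setting. At sizes of 1.5-fold and 3-fold, 1 member was lower and 0 were higher. No paired analysis was possible because there was 1 array per group. The number of arrays limits the precision.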
